A study of Homo sapiens with 66 samples.

Results

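NB-4 is an acute myeloid leukaemia (AML) line arrested at the promyelocyte stage that carries the PML-RARA fusion of acute promyelocytic leukaemia. The etoposide response of this line rests on 6 of the 66 libraries of the series, 3 untreated (labelled NB4 and Untreated) and 3 etoposide-treated, chosen by these labels and not by any measured value. Cells seeded overnight in 6-well plates were kept for 24 hours either in medium alone or in medium with 0.5 µM etoposide, the concentration chosen for this line to give similar killing in each line. All 6 samples are the same established line without a further genotype, the cells of 3 wells were pooled for RNA, and poly(A)-selected libraries were sequenced. The other lines used for comparison are HL-60, THP-1, F-36P, MV-4-11, KASUMI-1, OCI-AML3, MOLM-13, NOMO-1 and MONO-MAC-6, each with 3 untreated and 3 etoposide libraries and each treated at its own concentration, so a difference between lines includes a difference in dose. OCI-AML2 was left out because its etoposide libraries failed quality control.

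Etoposide poisons topoisomerase II, the enzyme that passes DNA strands through a transient double-strand break, and so leaves breaks that cells answer by arrest, repair or apoptosis. Promyelocytes are the stage of granulocyte development at which the azurophil granules are filled with myeloperoxidase and serine proteases. PML-RARA holds cells at that stage by repressing retinoic acid target genes, and NB-4 cells can be driven on to granulocytes by retinoic acid.

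The files held 18675887 to 21304265 reads on genes per untreated library and 20041138 to 21541218 per etoposide library, so that a gene with no read in a library may still be present at up to 0.13 to 0.172 CPM (counts scaled to the size of the library and its composition), a limit that covers counting error only. The first principal component took 83.9% of the variance and separated the treatments, and the second took 6.1% and spread the untreated libraries. The study's methods speak in general of biological replicates, while the labels do not say whether the libraries of a group came from separate cultures, so the tests below measure the spread between these libraries, which may be partly technical. Strand use in the counting is not given in the sources used here. Of 107 called genes picked by the naming rule, 56 overlap another annotated gene on either strand, and their reads cannot be fully told apart from those of the overlapping gene.

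The label was checked against genes that define the promyelocyte. Untreated NB-4 cells had 15710 CPM ± 1386 (SD, n = 3) of MPO (myeloperoxidase), the second-highest level among the 11 lines after KASUMI-1, and 83.5 CPM ± 11.1 of CEBPE, a granulocytic transcription factor, also second. PRTN3 (proteinase 3), AZU1 (azurocidin), CTSG (cathepsin G) and GFI1 were also read, at 132 CPM ± 40.7, 45.8 CPM ± 6.15, 126 CPM ± 20.1 and 185 CPM ± 6.53, but at ranks 5, 8, 9 and 6 of the 11 lines, and CD33, at 66.5 CPM ± 3.91, was the lowest of the 11. ELANE (neutrophil elastase) was nearly absent, with 0.0335 CPM ± 0.0291. The stem cell antigen CD34 stood at 0.0521 CPM ± 0.0902, and HLA-DRA, HBA1 and PF4, which mark antigen-presenting, red and platelet lineages, had no reads in the 3 untreated libraries. These levels were scaled over the untreated libraries of all lines, and those that follow were scaled within NB-4.

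Etoposide changed many genes, and most of those that passed were induced. Of 13809 genes tested, 1817 were induced (13.2%) and 666 repressed (4.82%), at a fold change above 2 and a false discovery rate (FDR) below 0.05 by edgeR's quasi-likelihood test. The median log2 fold change of all genes tested was 0.008. Scaling by library size alone, with no correction for composition, moved this median by 0.205 to 0.214 and gave 2298 induced and 383 repressed genes, so that induced genes made up 85.7% of the calls in place of 73.2%. The changes below are relative to the median gene. Many induced genes were barely read without the drug: 833 of the 1817 reached the minimum level for testing (0.496 CPM, or 10 reads at the median depth) through the etoposide libraries alone, and such genes had to differ. Among the 12208 genes above the minimum in both groups, 983 (8.05%) were induced and 537 (4.40%) repressed. In bulk RNA, more cells of a type and more RNA per cell cannot be told apart.

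**Figure D1:**
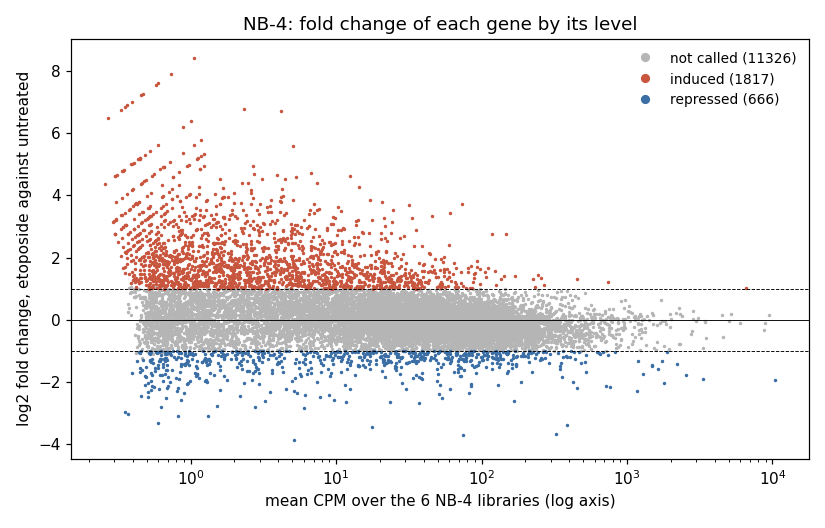
Each point is 1 of the 13809 genes tested, with its mean CPM over the 6 NB-4 libraries on a log axis and its log2 fold change (etoposide against untreated) on the vertical axis; dashed lines mark a fold change of 2. The 1817 induced genes crowd at the low end of the level axis and the 666 repressed genes spread along it.

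The direction of the response varied with the level of a gene and hardly with its length. In the lowest of 5 equal bins of protein-coding genes by mean level (up to 6.63 CPM), 958 of 2307 genes (41.5%) were induced and 87 (3.77%) repressed. In the highest bin (above 101 CPM) 15 genes (0.65%) were induced and 128 (5.55%) repressed, and the median log2 fold change went from 0.749 in the lowest to -0.222 in the highest bin. Of the 2307 genes in the lowest bin, 705 had reached the minimum through etoposide libraries alone. Gene length, by contrast, gave a nearly flat profile: in 10 equal bins of coding genes by length the induced share lay between 11.4% and 14% and the median log2 fold change between -0.033 and 0.050. In the bin with the longest genes (149588 bases and more) 146 genes (12.7%) were induced and 46 (3.99%) repressed, and in the bin with the shortest (up to 5997 bases) 141 (12.2%) and 63 (5.46%). By type, 1457 of 11533 protein-coding genes (12.6%) and 259 of 1374 long non-coding RNA genes (18.9%) were induced, while 458 (3.97%) and 134 (9.75%) were repressed. Of 33 snoRNA genes, which the poly(A) selection samples poorly, 8 were repressed and 0 induced.

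**Figure D2:**
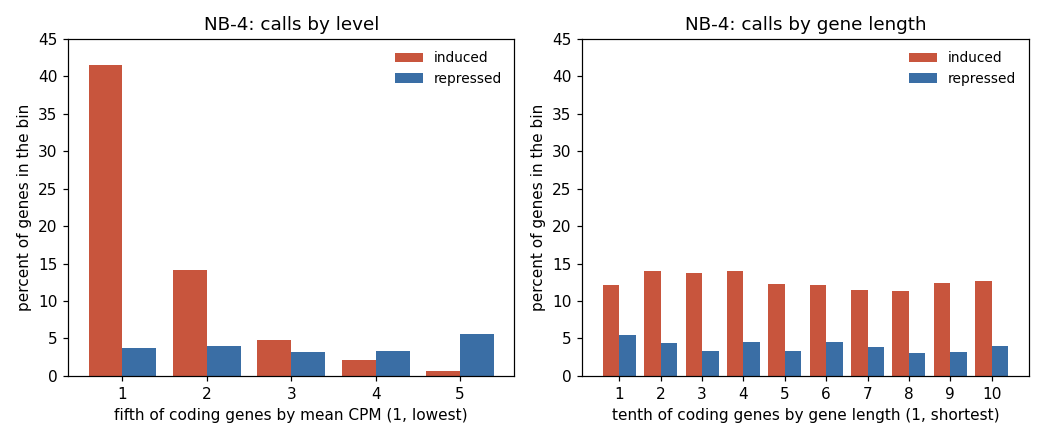
Bars give the percent of protein-coding genes in each bin that were induced or repressed in NB-4, by 5 bins of mean CPM (left) and 10 bins of gene length (right). The induced share falls from 41.5% to 0.65% with level and stays between 11.4% and 14% with length.

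The strongest repression fell on a growth factor, a granule protease and sterol genes. HGF (hepatocyte growth factor, chr7:81699010-81770438, minus strand) was read at 11.7, 9.27 and 8.07 CPM in the untreated and at 0.652, 0.785 and 0.550 CPM in the etoposide libraries. The groups did not overlap, and HGF was 14.5-fold lower (log2 fold change -3.86 ± 0.223 SE, FDR 2.97e-09). CHAT (choline acetyltransferase) fell 11.1-fold from 32.6 CPM ± 9.86 to 2.94 CPM ± 0.648, although the SLC18A3 gene lies within it on the same strand. PDE4B (a cyclic AMP phosphodiesterase, chr1:65792514-66374579, plus strand) had 62.3, 57.9 and 72.1 CPM untreated against 10.5, 9.52 and 9.85 CPM with etoposide, 6.43-fold lower (-2.69 ± 0.115, FDR 4.02e-10). ELOVL3, a fatty acid elongase, fell by 2.66 on the log2 scale, PLA2G3, a secreted phospholipase, by 2.80 and PNCK, a kinase of the calmodulin-dependent family, by 2.77. PNCK was the single named gene that passed with overlapping groups, at 2.64 CPM ± 1.78 and 0.381 CPM ± 0.427.

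The largest inductions were of genes with almost no reads before treatment. COL1A1 (collagen type I alpha 1, chr17:50184101-50201632, minus strand) had 0 reads in the untreated libraries and 2.22, 2.13 and 1.97 CPM with etoposide, at least 39-fold higher when 3 reads are allowed over the untreated group. CD86, a costimulatory ligand of antigen-presenting cells (chr3:122055362-122121139, plus strand), had 0.0508, 0.0545 and 0.115 CPM untreated and 9.09, 8.45 and 7.33 CPM with etoposide. Its 4 untreated reads became 552, a log2 fold change of 6.73 ± 0.314 (FDR 4.95e-10). TMEM263 went from 1 read to 134, a ratio of 112 with a 95% exact interval of 19.7 to 4453. LY96, the MD-2 subunit of the lipopolysaccharide receptor, went from 2 reads to 137, a ratio of 57.2 (15.5 to 477). SLC4A3, an anion exchanger, rose from 0.198 CPM ± 0.114 to 9.94 CPM ± 1.02 (5.60 ± 0.272), and TMEM119 from 0.166 CPM ± 0.0999 to 5.23 CPM ± 0.300 (4.96 ± 0.314). FXYD6 (a regulator of the sodium pump), CD6 (a lymphocyte surface receptor) and UNC5B (a netrin receptor) were also among the 10 largest, with 3 untreated reads each and ratios of 44.5 (15 to 218), 42.6 (14.3 to 209) and 40.1 (13.4 to 197). These bounds and intervals cover counting error only, while the libraries of a group differed by a chi-square of 4.57 to 21.7 per degree of freedom over genes, where counting noise alone gives 1.

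**Figure D3:**
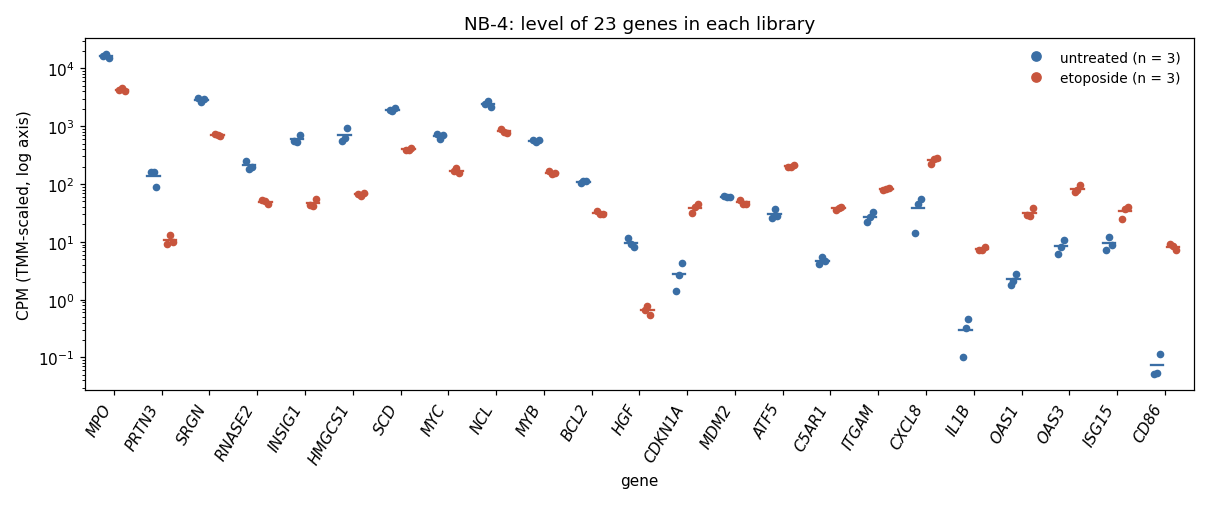
CPM of 23 genes on a log axis in each of the 3 untreated (blue) and 3 etoposide (red) NB-4 libraries, with a bar at each group's mean. Granule, sterol and growth genes on the left are lower with etoposide (MPO from 16507 to 4295 CPM), and CDKN1A, ATF5, interferon and immune genes on the right are higher, with MDM2 between them at 60.7 and 48.3 CPM.

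Most genes of the azurophil granule that were tested were repressed. Of 20 listed genes 17 were tested, 2 of them above the minimum in the untreated libraries alone. Of these 17, 10 were repressed and 1 induced, against 4.82% and 13.2% of all genes, with a median log2 fold change of -1.18. At FDR alone 13 were lower and 3 higher, against 28.7% and 31.0% of all genes. MPO (chr17:58269855-58280935, minus strand) had 16485, 17889 and 15147 CPM untreated and 4166, 4650 and 4070 CPM with etoposide. It was 3.84-fold lower (-1.94 ± 0.093, FDR 5.59e-10), with every etoposide library below every untreated one. PRTN3 (chr19:840999-848175, plus strand) dropped from 161, 165 and 90.4 CPM to 9.05, 13.2 and 9.99 CPM, 12.9-fold lower (-3.69 ± 0.205, FDR 1.91e-09). SRGN encodes serglycin, the proteoglycan on which granule proteins are packed. Its 3100, 2678 and 2933 CPM fell to 742, 720 and 676 CPM (-2.03 ± 0.088, FDR 4.02e-10). RNASE2 and DEFA4, the eosinophil-derived neurotoxin and an alpha-defensin, fell by 2.09 and 2.44, and CTSG by 1.52. SERPINB1, the inhibitor of the granule proteases, went the other way, from 17.5 to 43.9 CPM (1.33 ± 0.106), while LYZ (lysozyme, 0.39), CD63 (0.58) and CTSC (cathepsin C, the activator of the granule proteases, -0.53) did not reach a fold change of 2. The summed level of the listed genes was 19757 to 22481 CPM per untreated library and 5729 to 6404 CPM per etoposide library.

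Genes of later granulocytic maturation moved in both directions. Of 35 listed genes 24 were tested, 4 of them through the etoposide libraries alone. Of these 24, 12 were induced and 3 repressed, against 13.2% and 4.82% of all genes. The median of 1.02 became 0.56 over the 20 genes above the minimum in both groups. In the other 9 lines the list's median, over the members tested in each, ran from 0.57 in HL-60 to 3.02 in KASUMI-1. It was above that of NB-4 in 6 of them. C5AR1, the complement C5a receptor (chr19:47290023-47322066, plus strand), rose from 4.11, 5.45 and 4.69 CPM to 36.2, 39.0 and 40.1 CPM (3.02 ± 0.129, FDR 4.02e-10). The integrin chains ITGAM (CD11b) and ITGAX (CD11c), used to follow maturation, rose from 22.3, 26.7 and 33.1 to 79.1, 83.8 and 86.5 CPM and from 6.30, 9.11 and 15.1 to 35.2, 40.7 and 44.3 CPM. Subunits of the phagocyte oxidase split: the cytosolic NCF1 and NCF4 were induced (2.47 and 1.63), whereas the membrane subunits CYBB (-0.03) and CYBA (0.31) stayed under the fold minimum. TNFAIP6 and CAMP rose from under 1 CPM to 5.39 CPM ± 0.580 and 1.47 CPM ± 0.297. CEBPE, the factor that directs secondary granule genes, was repressed from 83.2, 101 and 79.3 to 27.9, 37.0 and 36 CPM (-1.38 ± 0.121), as were CEBPD (-1.71) and the chemokine receptor CXCR4 (-1.59). The late markers CEACAM8 and CD177 had no reads in any of the 6 libraries, and LTF and LCN2 stayed below the minimum.

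Among 22 myeloid transcription factors 20 were tested, and 7 were induced and 2 repressed, against 13.2% and 4.82% of all genes. The median of the 20 was -0.25. MYB, which sustains immature progenitors, fell from 575, 536 and 579 CPM to 166, 150 and 153 CPM (-1.85 ± 0.083, FDR 4.23e-10). MEF2C (2.0), EGR2 (1.84), EGR1 (1.52), KLF6 (1.41), IRF8 (1.29) and CEBPB (1.06) were among the induced factors. SPI1 (PU.1) and CEBPA, on which all granulocyte and monocyte development depends, were at -0.30 ± 0.104 and -0.50 ± 0.104 and under the fold minimum.

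Of the retinoic acid response list 21 of 28 genes were tested, and 6 were induced and 2 repressed (median 0.67), against 13.2% and 4.82% of all genes. In the other 9 lines the list's median, over the members tested in each, ran from 0.35 in THP-1 to 1.58 in F-36P. It was above that of NB-4 in 3 of them and below it in 6. RARA itself was read at 36.5 CPM ± 0.658 untreated and 36.2 CPM ± 3.40 with etoposide (-0.01 ± 0.101, FDR 0.939), and the reads do not separate the normal allele from the fusion. STRA6, the cellular receptor for retinol-binding protein, rose from 3.96, 6.11 and 8.59 to 50, 64.8 and 65.9 CPM (3.29 ± 0.196, FDR 4.12e-09). DHRS9 and DHRS3, dehydrogenases that act on retinoids, fell: DHRS9 from 45.5, 38.7 and 37.4 to 7.05, 6.79 and 5.50 CPM (-2.65 ± 0.131), and DHRS3 from 2.08 CPM ± 0.990 to 0.510 CPM ± 0.127 (-1.99 ± 0.383). TFEB rose by 1.58 ± 0.186 on the log2 scale, and CYP26A1, the retinoic acid hydroxylase, was at 0.69 and did not pass.

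Monocyte and macrophage surface genes were induced in part. Of 29 listed genes 21 were tested, 5 of them through the etoposide libraries alone. Of these 21, 10 were induced and 0 repressed, against 13.2% and 4.82% of all genes. The median was 0.39, and 0.10 over the 16 above the minimum in both groups. CLEC7A, the beta-glucan receptor dectin-1, had 0 reads untreated and 97 with etoposide, at least 27-fold higher by the same bound. CD80 and SIGLEC1 rose from under 0.2 CPM to 0.908 CPM ± 0.410 and 1.35 CPM ± 0.0183. CSF1R, the receptor of macrophage colony-stimulating factor, rose from 7.5 to 17.7 CPM (1.24), and the signalling adaptors TYROBP (1.21) and FCER1G (1.05) rose with it. CD33 stood at 69.9 CPM ± 4.52 and 84.5 CPM ± 1.65 (0.28, under the fold minimum), and CD14, the monocyte marker, remained below the level for testing, at 0.110 and 0.564 CPM.

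Sterol synthesis genes were repressed along the pathway. The genes of this list encode the mevalonate and cholesterol enzymes and the SREBP factors that drive them. Of 31 listed genes 28 were tested, all above the minimum in both groups. Among these 28, 17 were repressed and 1 induced, against 4.40% and 8.05% of all genes above it in both groups. The median was -1.12. At FDR alone 25 were lower, against 28.7% of all genes. INSIG1, the sterol sensor that retains SREBP in the endoplasmic reticulum (chr7:155297776-155310235, plus strand), fell from 563, 525 and 708 CPM to 43.2, 41.8 and 55.9 CPM, 12.7-fold (-3.67 ± 0.135, FDR 1.16e-10). HMGCS1, which makes the precursor of mevalonate (chr5:43287470-43313512, minus strand), fell from 554, 637 and 926 to 68.5, 62.7 and 70.5 CPM, 10.5-fold (-3.39 ± 0.155, FDR 4.23e-10). DHCR7, the last step of cholesterol synthesis, fell 6.18-fold from 289 CPM ± 40.0 to 46.7 CPM ± 6.10. Fatty acid genes under the same factors fell too: SCD (stearoyl-CoA desaturase) from 1920, 1816 and 2092 to 390, 382 and 419 CPM (-2.29 ± 0.088, FDR 1.53e-10), and FASN (fatty acid synthase) by 2.15. SREBF2 (-1.0) and SREBF1 (-0.96) passed the FDR and stood just at the fold minimum. TM7SF2, a sterol reductase, rose by 1.55, and ABCA1, which exports cholesterol, was at 0.34. CYP51A1 had no reads in the 6 libraries and overlaps genes of the opposite strand.

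The promoters of 22 of the tested sterol genes are in the RefSeq table of GRCh38.p14, and the 250 bases before each listed start were searched on both strands. The sterol-type motif TCACNCCAC was found for 1 of the 22, SREBF2, against 1.09% of the 27305 genes in the table. CCAAT, the box that binds NF-Y, was found for 19 of the 22 (86.4%), against 37.0% of the genes in the table and 41.5% of those tested. It was present for all 12 repressed genes in the table and for the induced TM7SF2 alike. Shown here, for the most strongly repressed gene and for DHCR7, are the 180 bases before the start, 5′ to 3′ on the gene's strand, with CCAAT or its complement in capitals.
INSIG1, chr7:155297698-155297877, plus strand: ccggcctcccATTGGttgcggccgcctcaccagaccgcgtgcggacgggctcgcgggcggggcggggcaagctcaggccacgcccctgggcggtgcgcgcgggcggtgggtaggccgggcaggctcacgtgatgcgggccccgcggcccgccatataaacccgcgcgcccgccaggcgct
DHCR7, chr11:71448394-71448573, minus strand: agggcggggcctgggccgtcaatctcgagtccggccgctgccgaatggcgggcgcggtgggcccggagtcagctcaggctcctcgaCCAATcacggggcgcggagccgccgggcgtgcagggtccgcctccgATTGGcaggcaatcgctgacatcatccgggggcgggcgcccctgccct
INSIG1 holds 1 match, which begins 170 bases before the start, and DHCR7 holds 2. A match is a description of the letters and not of a bound site.

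MYC and many genes of ribosome production fell as well. All 31 genes of the list were tested, 14 were repressed and 0 induced, and 30 of the 31 were lower at FDR alone (median -0.90), against 4.82% repressed and 28.7% lower of all genes. MYC fell from 728, 613 and 706 CPM to 166, 187 and 154 CPM, 4.04-fold (-2.01 ± 0.098, FDR 5.8e-10). NCL (nucleolin) fell from 2418, 2759 and 2157 to 890, 805 and 771 CPM (-1.57 ± 0.099), and NPM1 (nucleophosmin) from 2095 CPM ± 22 to 1072 CPM ± 67.1 (-0.97 ± 0.081), just under the fold minimum. POLR1G, a subunit of RNA polymerase I, fell by 1.64 and WDR43, a processing factor, by 1.38. Scaled by library size alone, 9 of the list were repressed.

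Cell division and DNA replication genes showed few calls, where 13.2% of all genes were induced and 4.82% repressed. Of 30 G2/M genes, CCNA2 (cyclin A2) was repressed (160 CPM ± 12.1 to 77.1 CPM ± 9.56, -1.06 ± 0.10) and no other was called, with a median of -0.07 that becomes 0.14 when scaled by library size alone. The call of CCNA2 is lost at that scaling (-0.85) and without etoposide replicate 3 (-0.99). CCNB1 and CCNB2, the mitotic cyclins, were at -0.40 and 0.31, and PLK1, a mitotic kinase, at -0.36. Of 37 replication genes 2 were induced, TK1 (thymidine kinase, 47.2 CPM ± 5.39 to 134 CPM ± 12.1, 1.51 ± 0.104) and E2F2 (1.06 ± 0.258), whose call is lost without untreated replicate 2 (0.87) or 3 (0.89). MCM2 and MCM3, helicase subunits, were at -0.20 and -0.21 with FDRs of 0.0689 and 0.0561. Of 54 replication-dependent histone genes in the files, whose mRNAs mostly lack a poly(A) tail, 10 were tested, and H2BC5, H2AC6 and H2BC11 were induced by 1.34 to 1.59. The count of induced histone genes was 5 without etoposide replicate 3 or with no filter on low counts, and 0 when a mean of 5 CPM was required. H2BC4 was called repressed (-1.04 ± 0.374), a call lost in 5 of the other fits, 3 of them without 1 library, and H1-2 was at 0.43.

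Of 26 listed p53 target genes 22 were tested, and 3 were induced and 0 repressed, against 13.2% and 4.82% of all genes, with a median of 0.25. At FDR alone 9 were higher and 3 lower, and 5 were induced when scaled by library size alone or when a mean of 5 CPM was required. CDKN1A, the p21 inhibitor of cyclin-dependent kinases (chr6:36676460-36687337, plus strand), rose from 1.42, 2.67 and 4.35 CPM to 31.0, 39.5 and 44.3 CPM, 13.8-fold (3.78 ± 0.242, FDR 8.21e-09). BTG2, an antiproliferative gene, rose from 0.762, 1.75 and 3.49 to 13.3, 20.2 and 16.3 CPM (3.07 ± 0.302), and SESN2 (sestrin 2) from 18.2 CPM ± 3.10 to 61.3 CPM ± 6.88 (1.75 ± 0.13). MDM2, the ubiquitin ligase of p53, had 62.0, 59.1 and 60.8 CPM untreated and 53.5, 45.7 and 45.7 CPM with etoposide, slightly lower in each etoposide library (-0.33 ± 0.095, FDR 0.0075). BAX (0.03), BBC3 (PUMA, 0.45), GADD45A (0.50), ZMAT3 (0.22) and FAS (0.16) were under the fold minimum, and PHLDA3 had no reads.

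Of 29 BCL2 family and caspase genes tested 5 were induced and 1 repressed (median 0.41), against 13.2% and 4.82% of all genes, and at FDR alone 17 were higher and 2 lower. BCL2, the survival protein, fell from 105, 111 and 114 CPM to 33.9, 29.9 and 29.8 CPM (-1.82 ± 0.093, FDR 9.21e-10). BMF, a BH3-only antagonist of it, rose from 12.6, 16 and 19.7 to 60.7, 74.0 and 77.5 CPM (2.14 ± 0.144), and CASP1, BAD and PMAIP1 rose by 1.57, 1.04 and 1.01. Without etoposide replicate 2, 3 of the list were induced, as BAD and PMAIP1 fell under the fold minimum. BCL2L1 (BCL-XL) was at 0.58 ± 0.094. Of 23 death receptor and ligand genes tested, 4 of them through the etoposide libraries alone, 7 were induced and 0 repressed (median 0.56). Of the 19 above the minimum in both groups, 4 were induced, against 8.05% of all such genes, with a median of 0.12. At FDR alone 11 of the 23 were higher and 5 lower. TNFRSF9 (4-1BB) went from 0.420 CPM ± 0.241 to 10.2 CPM ± 3.27 (4.59 ± 0.325). Like TNFRSF1B, a receptor of tumour necrosis factor (1.72 ± 0.377), TNFRSF9 was tested through the etoposide libraries alone. TNFRSF25 (2.0 ± 0.178) and TNFRSF21 (1.39 ± 0.125) were above the minimum in both groups. Of 34 double-strand break repair genes 10 were higher, 10 were lower and 14 did not pass at FDR alone, against 31.0% and 28.7% of all genes higher and lower (median -0.02, and 0.18 when scaled by library size alone). XRCC6, the Ku70 subunit of end joining, was repressed (543 CPM ± 61.8 to 235 CPM ± 14.6, -1.21 ± 0.095) and the other 33 of 34 were under the fold minimum or did not pass, with BRCA1 and BRCA2 at 0.39 and 0.40.

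The targets of the drug were under the fold minimum. TOP2A was read at 667, 535 and 595 CPM untreated and 655, 509 and 544 CPM with etoposide, with overlapping groups (-0.07 ± 0.105, FDR 0.572). TOP2B went from 456, 398 and 420 to 251, 216 and 223 CPM (-0.89 ± 0.088, FDR 6.93e-07). TOP1 and TOP1MT, the nuclear and mitochondrial type I enzymes, were at -0.56 ± 0.088 and -0.77 ± 0.103. None of the 15 topoisomerase and drug transport genes tested was called, against 13.2% induced and 4.82% repressed of all genes. At FDR alone 7 were lower, against 28.7% of all genes. The median was -0.19, and 0.01 when scaled by library size alone. ABCG2, a drug efflux pump that was below the minimum, was called induced when no filter was used and when untreated replicate 2 or 3 was left out. ABCB1, another such pump, had 1 read over the 3 etoposide libraries and 0 untreated.

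Most interferon-stimulated genes that could be tested were induced. Of 41 listed genes 38 were tested, 6 of them through the etoposide libraries alone. Of these 38, 29 were induced and 0 repressed, against 13.2% and 4.82% of all genes, with a median of 1.81. Of the 32 above the minimum in both groups, 23 were induced, against 8.05% of all such genes, with a median of 1.73. OAS1, OAS2 and OAS3, the 2′-5′-oligoadenylate synthetases that activate RNase L, lie side by side on chromosome 12. OAS1 (chr12:112905856-112933219, plus strand) rose from 1.83, 2.07 and 2.81 to 28.9, 28.1 and 38.7 CPM (3.84 ± 0.181, FDR 4.95e-10), and OAS3 from 6.14, 8.13 and 10.8 to 73.9, 77.7 and 98.1 CPM (3.32 ± 0.167, FDR 7.72e-10). OAS2 rose from 0.453 CPM ± 0.179 to 6.64 CPM ± 1.14 (3.86 ± 0.266), and IFIT5, an RNA-binding protein, from 0.554 CPM ± 0.218 to 6.25 CPM ± 1.55 (3.47 ± 0.286). ISG20, an RNA exonuclease, rose by 2.01 ± 0.335. ISG15, a ubiquitin-like modifier, rose from 7.36, 12.1 and 8.76 to 24.5, 37.3 and 40.9 CPM (1.87 ± 0.193). The receptors of viral RNA differed, with RIGI at 1.43 and IFIH1 (MDA5) at 0.08, and the membrane proteins IFITM1 (-0.22), IFITM3 (0.21) and BST2 (0.37) were not called. MX2 was lower at FDR alone, at -0.71, and STAT2, IRF7 and IRF9 were induced (1.17, 2.44 and 1.31).

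The promoters of 30 of the tested interferon-stimulated genes are in the same RefSeq table. The core of the interferon-stimulated response element, GAAA followed after any 2 bases by GAAA, was found on either strand in the 250 bases before a start for 19 of the 30 (63.3%), against 3.71% of the 27305 genes in the table and 3.37% of the genes tested. Of these 19 genes 13 were induced (1.10 to 3.47) and 6 were not called (-0.22 to 0.73), and of the 11 without it 10 were induced (1.12 to 3.84). Both kinds are shown, each with the 180 bases before its start on the gene's strand and the motif or its complement in capitals: 4 induced genes with the motif, OAS1 as the induced gene with the largest change and no match, and IFITM1, chosen after its values were seen, as a gene with a match and no call.
OAS3, chr12:112938294-112938473, plus strand: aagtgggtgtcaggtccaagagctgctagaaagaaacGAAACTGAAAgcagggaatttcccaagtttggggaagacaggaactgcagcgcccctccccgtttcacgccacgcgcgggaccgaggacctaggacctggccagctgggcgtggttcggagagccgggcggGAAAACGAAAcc
IFIT5, chr10:89414388-89414567, plus strand: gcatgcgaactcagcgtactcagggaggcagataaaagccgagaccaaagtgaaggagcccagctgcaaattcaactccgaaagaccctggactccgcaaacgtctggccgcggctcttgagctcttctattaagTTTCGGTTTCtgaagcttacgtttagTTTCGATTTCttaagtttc
IFI6, chr1:27672193-27672372, minus strand: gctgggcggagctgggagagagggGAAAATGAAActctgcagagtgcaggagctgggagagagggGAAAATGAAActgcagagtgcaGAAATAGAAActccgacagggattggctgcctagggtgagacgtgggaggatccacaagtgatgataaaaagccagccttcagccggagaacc
ISG15, chr1:1013317-1013496, plus strand: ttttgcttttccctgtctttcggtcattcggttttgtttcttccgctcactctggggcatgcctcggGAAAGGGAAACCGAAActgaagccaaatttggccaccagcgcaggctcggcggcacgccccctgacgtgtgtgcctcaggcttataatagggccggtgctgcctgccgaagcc
OAS1, chr12:112906782-112906961, plus strand: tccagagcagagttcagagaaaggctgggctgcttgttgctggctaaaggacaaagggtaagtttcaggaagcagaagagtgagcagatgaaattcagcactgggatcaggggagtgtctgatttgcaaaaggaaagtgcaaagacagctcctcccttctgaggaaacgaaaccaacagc
IFITM1, chr11:313860-314039, plus strand: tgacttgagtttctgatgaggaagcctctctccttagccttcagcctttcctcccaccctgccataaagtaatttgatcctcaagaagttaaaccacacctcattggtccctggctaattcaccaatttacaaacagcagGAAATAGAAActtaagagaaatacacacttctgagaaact
OAS3 and IFIT5 carry 2 matches each, the nearest beginning 12 and 19 bases before the start, IFI6 carries 3 and ISG15 2 that overlap. IFI6 rose from 4.86 to 43.2 CPM (3.15). The search took a gap of exactly 2 bases. The OAS1 stretch holds gaaacgaaa near its end, where the gap is shorter, and this was not counted as a match.

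NF-kB target genes were mixed. Of 33 genes in the files 28 were tested, 6 of them through the etoposide libraries alone. Of these 28, 11 were induced and 1 repressed, against 13.2% and 4.82% of all genes. The median was 0.63, and 0.32 over the 22 above the minimum in both groups. CXCL8 (interleukin 8) rose from 14.5, 45.5 and 55.2 to 225, 269 and 280 CPM (2.75 ± 0.298, FDR 1.58e-06), and IL1B from 0.102, 0.327 and 0.458 to 7.13, 7.30 and 8.11 CPM (4.67 ± 0.283, FDR 5.25e-09). CCL2 and IL1A rose by 3.73 ± 0.406 and 2.92 ± 0.690. The inhibitors that NF-kB induces against itself went down: TNFAIP3 (A20) was repressed from 153 to 63.5 CPM (-1.27), a call lost without untreated replicate 3, and NFKBIA and NFKBIE, which hold NF-kB in the cytoplasm, were lower at FDR alone (-0.65 ± 0.137 and -0.53 ± 0.13).

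Of 25 AP-1, EGR and NR4A genes tested 12 were induced and 0 repressed (median 0.81), against 13.2% and 4.82% of all genes. ATF3 rose from 4.77, 7.80 and 10.2 to 39.5, 49.8 and 52.1 CPM (2.64 ± 0.193), FOS from 4.06, 4.58 and 8.01 to 23.3, 34.5 and 28.9 CPM (2.39 ± 0.207), and FOSB and EGR3 by 2.53 and 2.31. Of 25 genes of the ATF4 stress response tested, 9 were induced and 0 repressed (median 0.65). All 25 were above the minimum in both groups, where 8.05% of all genes were induced and 4.40% repressed. ATF5, a factor of amino acid and proteotoxic stress, rose from 25.9, 37.2 and 27.6 to 197, 200.4 and 215 CPM (2.76 ± 0.121, FDR 4.23e-10). DDIT3 (CHOP) rose from 16.3 CPM ± 5.40 to 58.0 CPM ± 7.66 (1.83 ± 0.184), SLC7A11, the cystine transporter, by 1.71 ± 0.111, ASNS (asparagine synthetase) by 1.70, and PHGDH, the first step of serine synthesis, by 1.40. The mRNA of ATF4, a factor controlled mainly in translation, was at -0.07 ± 0.101 (FDR 0.585).

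Genes of other lineages were low but not level. Of the stromal, epithelial and endothelial markers 4 of 12 were tested and 3 induced, COL1A1, KRT8 (1.33 CPM ± 0.0261 to 4.21 CPM ± 0.414) and PECAM1 (21.8 CPM ± 0.955 to 45.8 CPM ± 2.45), and their summed level was 33.4 to 34.1 CPM untreated and 63.9 to 70.6 CPM with etoposide. COL1A2, the partner chain of COL1A1, had 0 reads untreated and 0.0153 CPM with etoposide. Of the lymphoid markers 6 of 10 were tested and 3 induced, CD2 and CD79A among them, with sums of 93.2 to 108 and 166 to 194 CPM, and CD3D was at 0.46. Erythroid markers summed to 5.38 to 7.44 and 6.24 to 8.57 CPM with HBA1 and HBA2 at 0, and megakaryocyte markers to 1.27 to 3.09 and 8.09 to 9.89 CPM, where ITGA2B was induced (2.05 ± 0.206) and PF4 was at 0. Of the stem cell markers, 2 of 8 were tested, and MEIS1 was called induced at 0.411 and 0.896 CPM, a call that DESeq2 and 3 of the fits without 1 library did not make. The 3 tested MHC class II genes, HLA-DRB1, CD74 and HLA-DMA, were induced by 2.40 to 3.61 from under 0.3 CPM, all through the etoposide libraries alone, while HLA-DRA stayed at 0 reads. The part of other cells in these values was not tested.

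Among long non-coding RNAs, L3MBTL2-AS1 went from 2 untreated reads to 307 (4.96, 4.11 and 4.77 CPM with etoposide), a ratio of 128 with a counting interval of 35.2 to 1063, although it lies antisense to L3MBTL2. LINC00886 and LINC01426 rose by 5.20 ± 0.464 and 4.05 ± 0.349, LINC01160 by 3.52 ± 0.318 and DUSP5-DT, transcribed divergently from DUSP5, by 3.38 ± 0.330. DUSP5 itself, a nuclear phosphatase of ERK, was induced by 2.11. Of 15 mitochondrially encoded genes MT-RNR2 was called (3332, 3591 and 6170 CPM to 9383, 7809 and 9342 CPM, 1.02 ± 0.173), a call lost without either of untreated replicates 1 and 2 or etoposide replicates 1 and 3, while MT-ND1 and MT-ND2, subunits of complex I, were at 0.28 and 0.01 and the median of these genes was -0.04, or 0.16 when scaled by library size alone.

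The response of NB-4 was set against the mean response of the other 9 lines in a fit of 60 libraries, with the difference of the fold changes tested gene by gene. Of 19974 genes 600 (3.00%) responded more highly in NB-4 and 437 (2.19%) more lowly, at FDR below 0.05 and a difference above 1 on the log2 scale. The error in this fit is the spread between libraries within lines. The FDR therefore does not measure how much lines differ from each other, and whether another line would give fewer such genes was not tested. The difference could not be estimated for 4994 genes, 934 of them tested within NB-4, whose standard error was above 5. In 4323 of the 19974 genes at least 1 line had no reads in its 6 libraries, and none of these was called. The 9 lines received different doses, so dose and line cannot be told apart. In 232 protein-coding genes with at least 1 CPM that passed this test, the NB-4 fold change lay outside the range of all 9 lines, above it in 123 and below it in 109.

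The granule and sterol lists held many genes with a lower response in NB-4. Of all genes in this fit 2.19% responded more lowly and 3.00% more highly. Of 19 azurophil granule genes in the fit, 10 responded more lowly and 1 (SERPINB1) more highly. The list's median was -1.18 in NB-4, below each of the 9 other lines, where it ran from -0.62 in MONO-MAC-6 to 0.72 in F-36P. Each line's medians, here and below, are over the members tested in that line. For this list these were 17 in NB-4 and 11 in F-36P, so the medians are not over the same genes. SRGN lay at -0.86 to 1.13 in the other lines against -2.03 in NB-4. MPO was -2.30 in NOMO-1, so that its fall was not the largest in NB-4. Of 31 sterol genes 11 responded more lowly and 0 more highly, with the median at -1.12 against -0.98 in MONO-MAC-6, the next lowest, and 0.94 in F-36P. INSIG1 ran from -2.21 (MONO-MAC-6) to 1.07 (F-36P) elsewhere, and HMGCS1 from -1.88 to 1.25. Of 33 NF-kB targets 11 responded more lowly in NB-4 and 2 more highly. Among them were BCL2A1, an NF-kB-dependent survival gene at 6.10 CPM ± 1.49 and 8.96 CPM ± 1.17 in NB-4 (0.56 against 1.26 to 7.32 elsewhere), and NFKBIA (-0.65 against -0.28 to 2.0). CEBPE was -1.38 in NB-4 and -0.74 in HL-60, and up to 2.91 in F-36P.

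**Figure D4:**
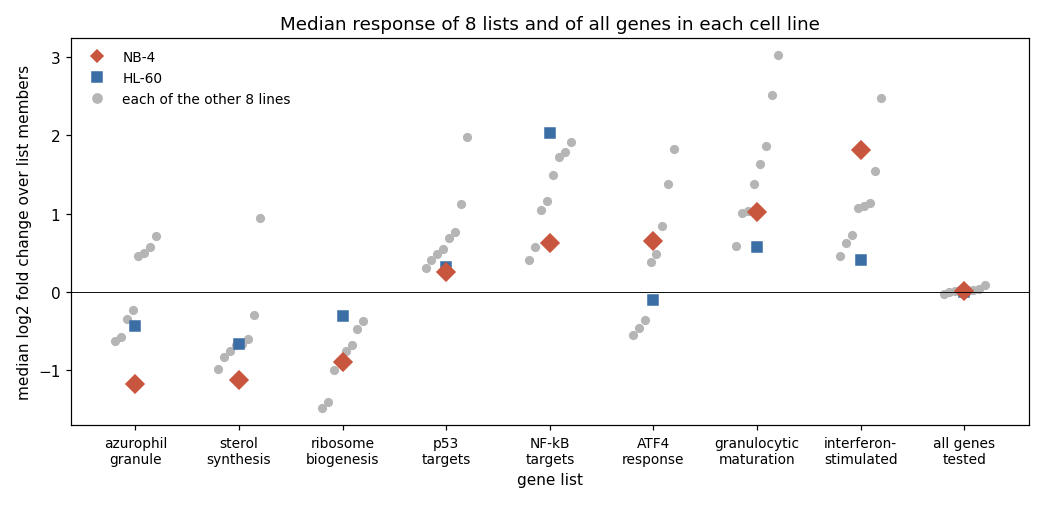
Median log2 fold change of 8 gene lists and of all genes tested, in NB-4 (red diamond), HL-60 (blue square) and each of the other 8 lines (grey), each from that line's own comparison. Each median is over the members tested in that line, which differ between lines. NB-4 is the lowest for azurophil granule (-1.18), sterol (-1.12) and p53 target genes (0.25, close to HL-60 at 0.32) and second highest for interferon-stimulated genes (1.81).

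Interferon-stimulated genes stood higher in NB-4 than in most lines. Of 41 in the fit 6 responded more highly (OAS1, IFIT5, IFI6, IFI35, CMPK2 and SAMD9L) and 1 (MX2) more lowly, against 3.00% and 2.19% of all genes. The median of 1.81 was exceeded by F-36P alone, at 2.48. For the p53 targets the NB-4 median of 0.25 was the lowest of the 10 lines, with F-36P (0.30) and HL-60 (0.32) close to it and OCI-AML3 highest at 1.98. Of 26 p53 targets in the fit, MDM2 (-0.33 against -0.22 to 2.59) and FAS (0.16) were the 2 with a lower response in NB-4 than in the mean of the 9 lines. None had a higher response. CDKN1A, at 3.78, lay within the range of the other lines, 1.86 to 5.46. MYC also lay within it (-2.01 against -3.75 to -0.56), and no gene of the ribosome list differed in either direction.

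Single genes with responses unlike those of all 9 lines included CD86, at 6.73 in NB-4 and 1.02 to 4.32 elsewhere. IPCEF1 (4.16), FUCA1, a lysosomal fucosidase (4.42), and TNNT1, a troponin subunit (3.72), exceeded highest values elsewhere of 2.36, 2.93 and 2.80. PDE4B fell in NB-4 and ran from -0.18 to 4.12 elsewhere. IL6R, the interleukin 6 receptor, fell from 94.1, 85.3 and 79.2 to 18.3, 16.2 and 15.3 CPM (-2.38 ± 0.108) and ran from -1.36 to 2.38. ADGRG3, a granulocyte adhesion receptor, was level in NB-4 (11.1 CPM ± 4.20 and 11.2 CPM ± 2.14, 0.02) and higher in each other line, by 0.86 to 5.38.

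HL-60, which the study lists under the same AML subtype as NB-4, was compared with it in the same fit, and 795 genes (3.98%) responded more highly in NB-4 than in HL-60 and 365 (1.83%) more lowly. Interferon-stimulated genes (14 more highly, 1 more lowly of 41, medians 1.81 and 0.41) and ATF4 response genes (7 and 0 of 28, medians 0.65 and -0.10) stood higher in NB-4, and NF-kB targets (1 and 16 of 33, medians 0.63 and 2.03) stood lower. SESN2 was -0.12 in HL-60 against 1.75, and C5AR1 was -0.54 against 3.02. MYC was -0.56 in HL-60 against -2.01, a difference of -1.44 ± 0.161 (FDR 1.21e-09).

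Of the 18 genes that the study followed as drug targets or modulators 17 were tested in NB-4, where PARP9 was induced and MYC repressed. PARP9, a mono-ADP-ribosyltransferase and member of the interferon list, rose from 10.6, 9.60 and 13.6 to 37.6, 35.3 and 38.7 CPM (1.73 ± 0.128, FDR 3.34e-08), and DTX3L, its partner on the opposite strand, by 1.12. BIRC5 (survivin, 0.39 ± 0.091), HDAC1 (0.59 ± 0.088), IGF1R (-0.64 ± 0.087), PLK1 (-0.36 ± 0.086), SMARCA4 (-0.56 ± 0.090), ROCK1 (-0.30 ± 0.104), MTOR (-0.21 ± 0.084) and NOTCH1 (0.28 ± 0.111) passed the FDR and not the fold minimum. MALT1, SIRT1 and SLFN11 lay between 0.07 and 0.23 and did not pass. PRKCH was below the minimum, with 1 read untreated.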

How the data were processed

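Poly(A)-selected RNA from NB-4 cells and the other AML cell lines was sequenced from stranded libraries. Reads had been aligned by the authors with STAR 2.5.3a to GRCh38.p7 with the gencode 25 annotation, after FastQC 0.11.5, according to the submitters' processing notes and the study's methods. The deposited files hold 1 column of raw read counts per gene and library, not normalized, and whether this column was counted by strand is not given in the sources used here. They list 58037 identifiers, of which 45 pseudoautosomal copies without reads were left out. Of the remaining 57992 identifiers, 56948 matched gencode 44, which gave symbols and positions.

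Genes were tested with edgeR 4.0.16 in R 4.3.3 (filterByExpr, minimum count 10, total 15, TMM normalization, quasi-likelihood fit, Benjamini-Hochberg adjustment), and a gene was called at FDR below 0.05 and a fold change above 2. The response of NB-4 was compared with 9 lines and with HL-60 by an interaction in 1 fit over 60 libraries. The SE of a log2 fold change is its size divided by the square root of F. CPM values, and the bounds and ratios of genes with 0 to 3 untreated reads, use TMM factors. Tables and figures were made with Python 3.11.15. On simulated counts, 193 of 193 changed genes tested were recovered with 2 false calls among 13556 genes for NB-4, and 190 of 200 with 0 false calls among 19450 genes for the interaction. The planted changes were all well above the fold minimum, balanced up and down, and fewer than the calls in the data. Recovery near the fold minimum, or under a shift of composition, was not tested.

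Alternatives were RLE and library size normalization, other filters, edgeR's exact test, DESeq2 1.42.0, no fold minimum, leaving out each library, and the replicate number as a block. The labels give replicate numbers 1 to 3 in both groups. After centring on the group mean, untreated and etoposide libraries with equal numbers had correlations of r = 0.265, 0.22 and 0.152. Libraries with unequal numbers had -0.262 to 0.0843. The numbers were treated as a possible pairing in the alternative with the block, while the main fits used no pairing.

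The members and gene lists were chosen with earlier results of these data known. Genes were named by rule: the 10 largest induced and 10 largest repressed coding genes averaging 1 CPM or more, the genes the study follows, in each list the 4 called genes with the largest fold change and the first 2 members, the 5 genes each way with the largest difference in response, and the 5 largest long non-coding RNAs. Some genes that the rule picks are not reported here. Other list members in the text were chosen after their values were seen. Promoters came from RefSeq (GRCh38.p14).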

Additional observations from a re-analysis of the deposited data

Results flagged for a closer look

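The response of NB-4 differed from the mean of the other 9 lines in 600 genes with a higher and 437 with a lower response, and from HL-60 in 795 and 365 genes, each by the test of the difference itself. That test uses the spread between libraries within lines and not the spread between lines. Among single genes, the difference in log2 fold change between NB-4 and the 9 lines was 4.38 for CD86, 3.05 for IPCEF1, 3.01 for FUCA1 and 2.64 for TNNT1. It was -3.68 for PDE4B, -2.84 for ADGRG3, -2.47 for IL6R, -2.44 for INSIG1, -2.43 for SRGN and -2.15 for BCL2A1. The lines were treated at different concentrations, and line and dose cannot be told apart. Groups of 3 libraries are too small to look for a single library that stands apart.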

How the results depend on the processing

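The numbers of induced and repressed genes (1817 and 666) became 704 and 342 when a mean of at least 5 CPM was required, since fewer genes were tested, and 4287 and 3967 with no fold minimum. Scaled by library size alone, 383 genes were repressed. With no minimum difference, 2088 and 1808 genes responded more highly and more lowly than the 9 lines, and 1625 and 1717 than HL-60. Without 1 library the induced genes numbered 1803 to 2055, the repressed 679 to 729, those differing from the 9 lines 487 to 636 higher and 385 to 445 lower, and from HL-60 621 to 830 and 336 to 376. With the replicate block the counts were 1822 induced and 666 repressed, 586 and 419 against the 9 lines, and 738 and 355 against HL-60, and the block changed no call among the 146 named genes tested. No named gene reversed its direction under any alternative. The calls of CCNA2, E2F2, H2BC4, MT-RNR2 and MEIS1 were lost under at least 1 alternative, and NPM1 passed without etoposide replicate 1 (-1.0). Of 2483 called genes 2200 were also called with library size alone, 2349 with DESeq2 and 2482 with the exact test. Of 56 counts over gene lists, 0 moved by more than 1.5 times with RLE, 8 with library size alone, 14 with at least 5 CPM, 2 with DESeq2 and 3 to 7 without 1 library; the cause was not tested. Leaving out F-36P gave 752 and 356 genes against the 8 lines. Depth limits the genes with few untreated reads, whose ratios carry wide intervals.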
